A study of Rattus norvegicus with 2 samples.

Results

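The granins and the enzymes that process prohormones were examined in rat sympathetic neurons, the noradrenergic neurons of the peripheral nervous system. The set held 10 genes chosen by name, with earlier results of these data known. They were the granin group Scg2, Scg3, Scg5, Chga, Chgb and Vgf and the enzymes Pcsk1, Pcsk2, Cpe and Pam. Each was represented by every probe set that the platform annotation assigns to that 1 symbol. This gave 11 probe sets for 9 of the 10 genes, out of 15866 probe sets and 10411 named genes, and Pcsk1 was not analysed here. RNA was hybridised to 2 Affymetrix Rat Expression Set 230A arrays, 1 per condition. One array carried RNA of neurons cultured with no target cells. The other, by its title and source name, carried RNA of neurons that had shared a dish with myocytes, the muscle target, and were then lifted off with EDTA. The free-text description of that second sample also says neurons grown alone, and the title was followed. The sources used here do not state strain, age, time in culture or how many cultures stand behind each array. No agent or genetic change is named for either group. According to the series' design text, the comparison asks which genes accompany the halt in growth that follows contact with a target.

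Granins are acidic secretory proteins that condense in the trans-Golgi network and help to form dense-core vesicles, the organelles in which sympathetic neurons store noradrenaline together with neuropeptides. Inside the vesicle, prohormone convertases cut peptide precursors after basic residues, carboxypeptidase E trims those residues away, and peptidylglycine alpha-amidating monooxygenase converts a terminal glycine to the amide that peptides such as neuropeptide Y need for activity. Several granins are themselves precursors of peptides, and transcription of Scg2 and Vgf is known to respond to cyclic AMP.

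The regulatory sequence just before the gene start is shown for 3 granin genes. Scg2 and Vgf, which had the largest and the smallest difference of the group between the arrays, both carry the full cyclic AMP response element there. Chgb was added because the stretch shown for it does not hold the full element. The sequences are RefSeq's, in build GRCr8, and give the 250 bases before the annotated start, 5′ to 3′ on the gene's strand. Capitals mark TGACGTCA, the full element, which reads the same on both strands.
Scg2 (chr9:88256867-88257116, minus strand): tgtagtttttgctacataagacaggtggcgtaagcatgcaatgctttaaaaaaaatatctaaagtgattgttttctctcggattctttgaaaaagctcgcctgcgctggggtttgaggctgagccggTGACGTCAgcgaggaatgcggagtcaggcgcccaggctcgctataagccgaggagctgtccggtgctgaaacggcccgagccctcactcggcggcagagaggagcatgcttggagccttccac
Vgf (chr12:25277021-25277270, minus strand): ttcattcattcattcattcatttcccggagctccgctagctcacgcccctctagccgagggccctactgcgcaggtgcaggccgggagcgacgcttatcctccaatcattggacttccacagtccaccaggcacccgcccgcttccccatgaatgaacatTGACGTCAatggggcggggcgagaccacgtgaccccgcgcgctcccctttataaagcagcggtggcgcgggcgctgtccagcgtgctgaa
Chgb (chr3:140496462-140496711, plus strand): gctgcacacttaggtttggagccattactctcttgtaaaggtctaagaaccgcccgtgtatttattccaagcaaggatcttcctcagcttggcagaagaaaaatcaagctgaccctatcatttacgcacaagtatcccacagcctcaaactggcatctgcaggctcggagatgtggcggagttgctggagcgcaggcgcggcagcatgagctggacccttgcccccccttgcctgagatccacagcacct
In Scg2 the element began 123 bases before the gene start and in Vgf 90 bases before it. The annotated gene spans of Scg2 and Vgf begin further upstream than these starts, so other transcripts of these genes can have other promoters. Windows of 300 bases, 250 before and 50 after the start, were found for 8 of the 10 genes. The genes with no window were Chga and Pcsk1. The full element was in 2 of the 8 windows and in 1.83% of all 33469 windows in the table. Its core, TGACG on either strand, which every full element also contains, was in 7 of the 8, Chgb being the exception, and in 21.2% of all windows. A match of letters is a description and does not show that a factor binds there. Sequence outside the windows was not searched, so a missing match, as in Chgb, speaks only for the window.

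With 1 array per condition there is no replicate spread, nothing was tested, and each value compares these 2 arrays rather than the conditions. Signals are the intensities as deposited, in arbitrary units. Differences are log2 ratios of neurons with myocytes over neurons alone, taken after raising intensities under 39.6, the 20th percentile over both arrays together, to that floor. A gene's value came from its brightest probe set. A gene passed the signal filter if this reached its array's median, 185.7 for neurons alone and 175.0 for neurons with myocytes, on at least 1 array. As a measure of technical error, the disagreement between 2 probe sets of the same gene gave, over 749 genes, an SD for the log2 ratio of a single probe set. It was 0.36 in the dimmest of 4 signal groups and 0.21 in the brightest. This SD covers differences between probe sets within these arrays and leaves out the spread between cultures.

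Transcripts of the granin group were lower in the array of neurons with myocytes, by amounts that ranged from 1.89-fold for Scg2 to 1.06-fold for Vgf. The enzyme genes Cpe and Pam were lower by 1.15-fold each. Of the 10 genes, 8 passed the filter, and these 8 were all lower under the deposited scaling and 5 other scalings. Under median scaling Vgf was at -0.003, which is close to no difference. When the arrays were scaled to pan-neuronal genes, 4 of the 8 (Scg3, Vgf, Cpe and Pam) turned higher. As deposited, 52.8% of the 6369 genes past the filter were lower. Under the 5 other scalings this share ran from 38.8% (median) to 67.5% (spiked controls). The median log2 ratio of the 8 was -0.28, against -0.02 for all genes past the filter. At least 1.5-fold lower were 2 of the 8, Scg2 and Chga, against 3.33% of all genes. Of these, Chga passed the filter only through the array of neurons alone, where it was high, so its place in the count is partly set by the filter. As deposited none of the 8 was 2-fold lower, against 0.659%. Chga fell short of 1.5-fold under quantile, median, lowess and pan-neuronal scaling, while under scaling to the spiked controls Chgb passed 1.5-fold (-0.64) and Scg2 passed 2-fold (-1.01). None was 1.5-fold higher, against 1.96% of all genes. In bulk RNA such as this, fewer neurons in the sample and less RNA per neuron cannot be told apart.

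**Figure D1:**
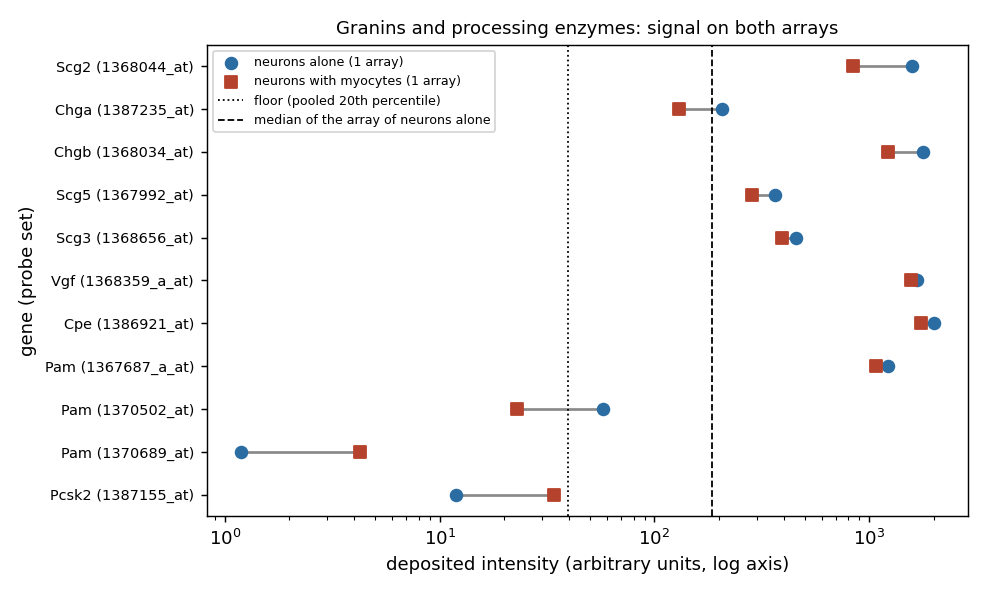
Deposited intensity (arbitrary units, log axis) of all 11 probe sets, with circles for neurons alone and squares for neurons with myocytes, 1 array each. The dotted line is the floor at 39.6 and the dashed line the median of the array of neurons alone at 185.7. The 8 genes past the filter all have the square to the left of the circle, and Pcsk2 and 1 probe set of Pam lie under the floor on both arrays.

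Scg2 encodes secretogranin II, the precursor of the peptide secretoneurin. Its probe set 1368044_at read 1582 without myocytes and 837 with them. The log2 ratio was -0.92, or 4.47 times the SD of 1 probe set at that signal (0.21). Counted from the lowest, it was number 57 of the 6369 genes past the filter. Its log2 ratio was below that of 17 of the 18 pan-neuronal genes past the filter. It was the largest difference in the set by 0.26 on the log2 scale, a gap to Chga that was smaller than the SD expected for a difference of those 2 genes (0.41).

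The chromogranins Chga and Chgb, the founding granins of chromaffin granules, followed. Chga, probe set 1387235_at, read 206 without myocytes and 131 with them. It passed the filter through the array of neurons alone, and in neurons with myocytes it lay under that array's median. Its log2 ratio of -0.66 (1.58-fold lower) was 1.83 times the SD of 1 probe set at this low signal (0.36). Chgb, probe set 1368034_at, read 1774 without myocytes and 1219 with them. Its log2 ratio of -0.54 (1.46-fold lower) was 2.63 times the SD (0.21) and was number 273 from the lowest of the genes past the filter. Chga and Chgb differed from each other by 0.12 on the log2 scale, which was within the SD of their difference (0.41).

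Scg3 and Vgf, which serve in different ways, showed smaller differences. Scg3 encodes secretogranin III, which links chromogranin A to the cholesterol-rich vesicle membrane. Its probe set 1368656_at read 454 without myocytes and 394 with them, a log2 ratio of -0.20 that was smaller than the SD of 1 probe set at that signal (0.29). Vgf encodes a nerve growth factor-inducible precursor of several secreted peptides. Its probe set 1368359_a_at read 1668 without myocytes and 1568 with them, a log2 ratio of -0.09 that was 0.44 times the SD (0.21). Of the 18 pan-neuronal genes past the filter, 17 had a lower log2 ratio than Vgf. The log2 ratios of Scg2 and Vgf, the 2 genes with the full response element in their windows, stood 0.83 apart. That is the full range of the set, since they are its lowest and highest genes.

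Scg5, grouped with the granins by name, encodes a chaperone that the convertase encoded by Pcsk2 needs to mature. Its probe set 1367992_at read 363 without myocytes and 286 with them. The log2 ratio of -0.35 (1.27-fold lower) was 0.97 times the SD of 1 probe set at that signal (0.36). Its client Pcsk2, on probe set 1387155_at, had signals of 12.0 and 34.2, both under the floor. No ratio was therefore formed for Pcsk2. These values show only that this probe set gave no signal above the floor, and they set no order between the arrays. The level of Pcsk1, the other convertase of dense-core vesicles, was not analysed here.

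The enzymes that act after the convertases were close on both arrays. Cpe, carboxypeptidase E, on probe set 1386921_at, read 1999 without myocytes and 1741 with them, a log2 ratio of -0.20 that was 0.97 times the SD of 1 probe set (0.21). Pam, the amidating enzyme, on its brightest probe set 1367687_a_at, read 1226 without myocytes and 1070 with them, a log2 ratio of -0.20 that was 0.95 times the SD. The suffix of that probe set marks probes shared by several transcripts of 1 gene. The other probe sets of Pam were dim. On 1370502_at the intensity was 57.5 without myocytes and 22.8, under the floor, with them. On 1370689_at it was 1.19 and 4.28, under the floor on both arrays. The Pam result thus rests on 1 probe set. Both enzymes are also made outside neurons, Pam abundantly in the atrium of the heart.

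**Figure D2:**
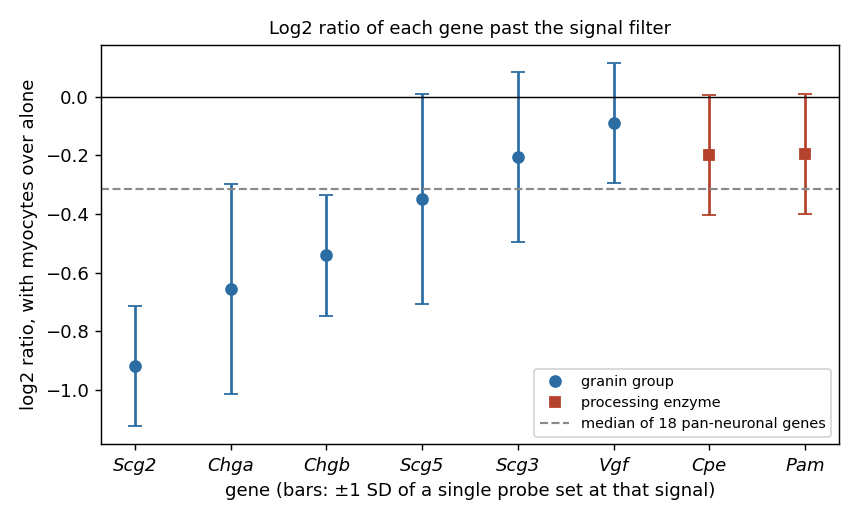
Log2 ratio (neurons with myocytes over neurons alone) of the 8 genes past the filter, with bars of 1 SD of a single probe set at that signal, which is a technical spread and no replicate error. The dashed line is the median of the 18 pan-neuronal genes (-0.31). Scg2 and Chgb lie below 0 by more than 2 SD, and Vgf, Scg3, Scg5, Cpe and Pam lie within 1 SD of 0.

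In order from the lowest log2 ratio the 8 genes were Scg2, Chga, Chgb, Scg5, Scg3, Cpe, Pam and Vgf. Each neighbour differed from the next by less than the SD of their difference. Sorting by itself brings neighbours close, so these gaps cannot show whether the set holds a break. The ends, Scg2 and Vgf, stood 0.83 apart, against an SD of 0.29 for their difference, and were picked as the extremes. The 6 genes of the granin group had a median log2 ratio of -0.44, and the 2 enzyme genes past the filter -0.20. Summed over the granin group, the intensity came to 6048 without myocytes and 4434 with them. For Cpe and Pam together it was 3225 and 2811.

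Neuronal transcripts in general were lower in neurons with myocytes, and the granin and enzyme genes lay within their range. Of 18 pan-neuronal genes past the filter, 17 were lower and Map2 was higher, with a median log2 ratio of -0.31. The lowest were Nsg2, a protein of neuronal endosomes (-1.18), the intermediate filament gene Ina (-0.71) and the membrane fusion gene Snap25 (-0.62). Among those with the most signal, the log2 ratio was -0.13 for Gap43, a growth cone protein gene, -0.12 for the filament gene Prph and -0.36 for the microtubule regulator gene Stmn2, and it was -0.19 for the neuronal tubulin gene Tubb3. The list's summed intensity was 45340 without myocytes and 36981 with them. When the arrays were instead scaled so that this list's median was 0, an alternative chosen after seeing the data, Scg2 stayed lower (-0.60), as did Chga (-0.34) and Chgb (-0.23). Chga then differed from 0 by less than the SD of 1 probe set at its signal (0.36), and Chgb by little more than its own (0.21). Under that scaling Scg5 was at -0.03, and Vgf (0.22), Pam (0.12), Cpe (0.12) and Scg3 (0.11) turned higher. The direction of these last 4 genes therefore depended on the scaling. As deposited each of them differed from 0 by less than the SD of 1 probe set. Whether the share of neuronal RNA in the sample has a part in the lower granin signals was not tested.

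**Figure D3:**
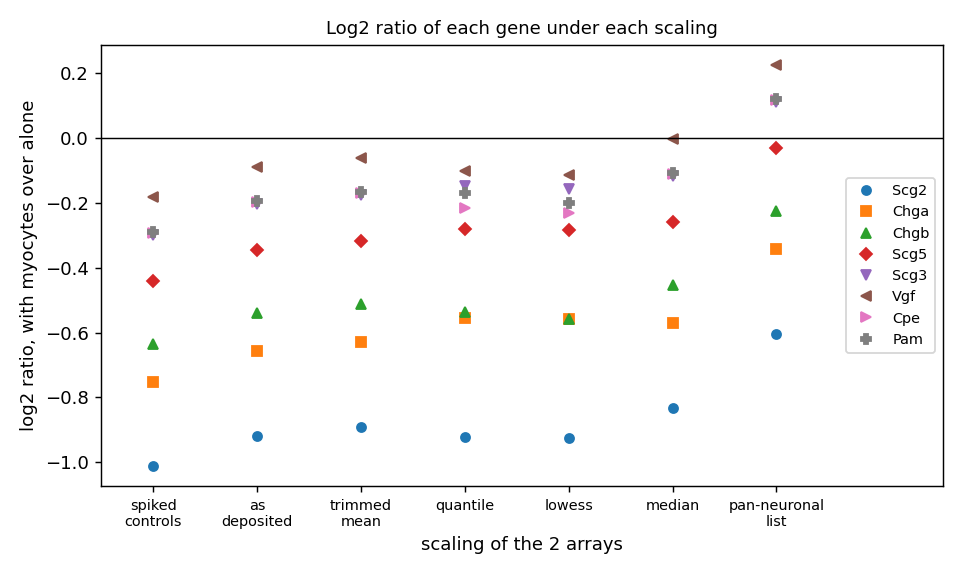
Log2 ratio (neurons with myocytes over neurons alone) of the 8 genes past the filter, 1 symbol per gene, under 7 scalings of the arrays. Scg2 lies lowest under each scaling, from -1.01 to -0.60, and Vgf, Pam, Cpe and Scg3 cross 0 under the scaling to the pan-neuronal list. All scalings but quantile and lowess move these genes by the same amount, so they cannot change their order.

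Markers of sympathetic neurons were strong on both arrays, and so were those of fibroblasts and smooth muscle, so the RNA came from mixed cells. The 13 measured markers of sympathetic neurons passed the filter. Th, which makes the precursor of noradrenaline, read 6175 without myocytes and 4575 with them, and Dbh had 2159 and 1596. All 13 were lower as deposited, with Gata3 turning higher under quantile, median and lowess scaling and 6 genes under the scaling to pan-neuronal genes, and they had a median log2 ratio of -0.40 and a summed signal of 29363 and 23415. Fibroblast and smooth muscle transcripts were present on both arrays, with 13 of 13 past the filter, 11 of them higher in neurons with myocytes (8 after quantile normalization), a median of 0.25 and a summed signal of 49885 and 55190. Col1a1, a collagen gene of these cells, had 9988 and 10750, the first being the highest value of any gene on the array of neurons alone. Of the Schwann and satellite glia list, 6 of 7 measured genes passed, with a median of 0.10 and a summed signal of 4832 and 4926. Of these, Erbb3 and Gfap passed only through the array of neurons with myocytes, where they were high. The 4 that reached the median on both arrays were 2 lower and 2 higher, with a median log2 ratio of -0.01. The glial calcium-binding protein gene S100b had 263 and 524. Of 13 measured cardiac myocyte genes 8 were under the filter on both arrays. As deposited, 3 of the other 5 were higher in neurons with myocytes and 2, Mybpc3 (253 and 220) and Pln (284 and 279), lower. Of the higher ones, Nppa and Nppb passed the filter only through the array of neurons with myocytes, where they were high. The 3 that reached the median on both arrays were 2 lower and 1 higher, with a median log2 ratio of -0.02. Pln turned higher under all other scalings but that to the spiked controls, and Mybpc3 under the pan-neuronal one. The 5 summed to 1187 and 1418. Among the defining cardiac genes, all named after their values were seen, Tnni3 and Ryr2 were under the floor on both arrays. Ckmt2 (56.0 and 19.4) and Myl7 (40.5 and 31.0) were under it in neurons with myocytes only. Some others were higher in neurons with myocytes. Myl2 had 44.8 and 134, Myh6 74.3 and 134, and Myh7 18.3, under the floor, and 69.9, all under the filter, and Tnnt2 had 293 and 408. No measured endothelial gene passed the filter. Of 7 macrophage and leukocyte genes 5 passed, Csf1r and Aif1 only through the array of neurons alone, and the 5 had a summed signal of 1290 and 1201. Pnmt, which chromaffin cells use to make adrenaline, was under the filter (120 and 44.6). The part of these cells in the granin and enzyme values was not tested. The ratio of 3′ to 5′ signal, a sign of RNA integrity, was 1.15 and 1.24 for the beta-actin controls and 1.13 and 1.17 for those of Gapdh.

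Other enzymes of the secretory route divided evenly. Of 16 measured convertases, carboxypeptidases and helpers 10 passed the filter, and 5 were lower and 5 higher, with a median log2 ratio of -0.02 (0.062 under median scaling). Among the 10 past the filter, the 2 largest differences were those of Pcsk1n and Qpct. Pcsk1n, which encodes proSAAS, an inhibitor of the Pcsk1 convertase, read 1308 without myocytes and 998 with them (1.31-fold lower). Qpct, which forms the pyroglutamate cap of some peptides, had 348 and 278 (1.25-fold lower). Its log2 ratio of -0.32 was smaller than the SD of 1 probe set in the dimmest signal group (0.36), where it lay. The lysosomal protease genes were higher in neurons with myocytes, Ctsb by 1.18-fold (2688 against 3172) and Ctsl from 3342 to 3837. Furin, the convertase of the constitutive pathway in most cells, had 986 and 989. Pcsk5 and Pcsk6 were under the filter on both arrays.

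Genes of the dense-core vesicle membrane and its release had lower signals as deposited. Of 26 measured genes 16 passed the filter, and these 16 were all lower as deposited, with a median log2 ratio of -0.30. Rab2a turned higher under median scaling, and 9 of the 16 did under the scaling to pan-neuronal genes, where the median was 0.014. The largest differences belonged to the vesicle GTPase gene Rab3a (361 against 100, log2 ratio -1.85) and the synaptotagmin genes Syt9 (-1.08) and Syt11 (-0.67). Rab3a and Syt9 passed the filter through the array of neurons alone only, and the other 14 reached the median on both arrays and had a median log2 ratio of -0.24. The 3 genes with the most signal differed little. Rab2a, a GTPase of vesicle maturation, had 1728 and 1651, the vesicle membrane protein gene Ptprn 1687 and 1589, and the proton pump accessory gene Atp6ap1 1387 and 1270. Scg2 had a lower log2 ratio than 14 of these 16 genes, and Vgf a higher one than 14 of them.

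The peptide precursors that these enzymes act on differed in both directions. Of 27 measured genes 13 passed the filter, of which 7 were lower and 6 higher, with a median log2 ratio of -0.27 that turned to 0.12 with the filter at the 25th percentile. Of the 13, 6 passed through 1 array alone, the one where they were high: Cartpt and Adm among the lower, and Sst, Nmu, Nppa and Nppb among the higher. Of the 7 that reached the median on both arrays, 5 were lower and 2, Cck and Edn1, higher. The nociceptin precursor gene Pnoc (-1.10) and the enkephalin precursor gene Penk (-0.93) were the lowest, close to Scg2 (-0.92). Npy had 6799 and 5507, a log2 ratio of -0.30, and the galanin gene Gal had 635 and 402. Nppb, a natriuretic peptide gene of heart muscle, had the highest log2 ratio of the 13, 0.78 (180 against 309). Its value in neurons alone was under that array's median. The partner gene Nppa, also on the cardiac myocyte list used here, had 178 and 201.

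**Figure D4:**
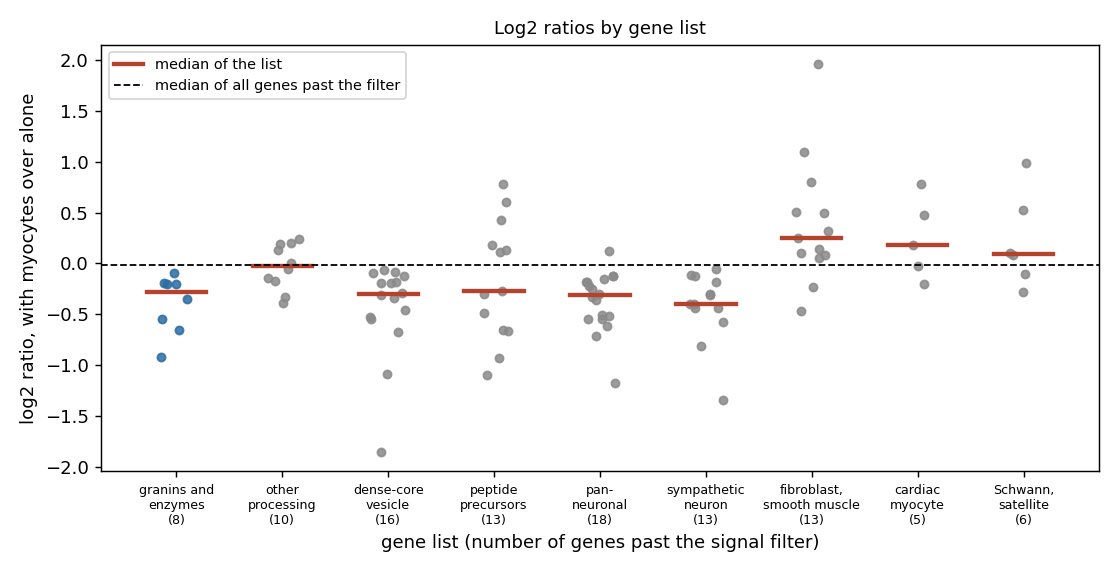
Log2 ratio (neurons with myocytes over neurons alone) of each gene past the filter in 9 lists, 1 point per gene, with the median of each list as a bar and the median of all genes as a dashed line (-0.02). The granin and enzyme genes, with a median of -0.28, lie in the range of the pan-neuronal (-0.31) and dense-core vesicle (-0.30) lists, and the fibroblast and smooth muscle list has a median above 0 (0.25), with 2 of its 13 genes below.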

How the data were processed

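The authors deposited a linear intensity for every probe set of each array. The series' design text names dChip 1.3 for quantification, while MAS5 appears in the submitters' processing notes, and the sources used here do not state which program, scaling target or background step gave the deposited intensity. The number of arrays, 1 per condition, limits the precision, and no depth applies. The 57 control probe sets were left out of gene values. Symbols were taken from the platform annotation and updated by gene identifier to RefSeq's GRCr8 table; promoters came from RefSeq in the same build. No normalization was added to the deposited values. Log2 ratios, the floor, the filter and the SD of 1 probe set were computed with Python 3.11.15 and pandas 2.3.3, and the functions were checked on simulated data. No test across samples was possible. The genes of the set, the lists and the thresholds were chosen with earlier results of these data known. Every gene of the set was described; from the 3 other pathway lists and the pan-neuronal list the text names the 3 genes with the most signal and the 3 with the largest difference past the filter, and from the cell type lists Th, Dbh, Nppa, Col1a1 and S100b. Map2, Furin, Pcsk5, Pcsk6, Pnmt, Gata3, Erbb3, Gfap, Csf1r, Aif1 and the other cardiac genes were named after their values were seen. The alternatives were 5 other scalings of the arrays, other floors and filters, other choices of probe set and, added after seeing the data, a scaling to the pan-neuronal list.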

Additional observations from a re-analysis of the deposited data

How the results depend on the processing

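Over 13 alternatives, Scg2, Chga, Chgb and Scg5 were lower in neurons with myocytes under each one. Their log2 ratios ran from -1.01 to -0.60, -0.75 to -0.34, -0.64 to -0.23 and -0.44 to -0.03. The other filters, the other choices of probe set and the floors other than the pseudocount left these ratios unchanged. For these genes only the scalings and the pseudocount therefore bear on the direction. Median scaling put Vgf at -0.003. Scg3, Cpe, Pam and Vgf turned higher under 1 alternative, the scaling to the pan-neuronal list, at 0.11, 0.12, 0.12 and 0.22. Under that scaling the median of the 8 genes was 0.038, that of the granin group -0.13 and that of the enzymes 0.12, 4 of the 8 were lower and 1 was past 1.5-fold. It also put the other processing enzymes at 0.29, the dense-core vesicle list at 0.014, the peptide precursors at 0.042 and, by construction, the pan-neuronal list at 0. The number past 1.5-fold was 1, Scg2, under quantile normalization, median scaling, lowess and the floor as a pseudocount, and 3, with Chgb added, on the spiked controls. Leaving out probe sets for several transcripts removed Vgf and Pam and gave a median of -0.44 over 6 genes. Median scaling put the lists of other processing enzymes, dense-core vesicles, peptide precursors and pan-neuronal genes at 0.062, -0.21, -0.19 and -0.23, and scaling to the spiked controls put them at -0.12, -0.39, -0.37 and -0.41. The trimmed mean gave 0.0032 for the other processing enzymes. With no filter the other processing enzymes were at -0.13, the dense-core vesicle list at -0.21 and the peptide precursors at 0. With the filter at the 25th percentile the other processing enzymes were at -0.13 and the peptide precursors at 0.12. The cause was not tested. Over all genes, the share lower was 52.8% as deposited, 38.8% with equal medians and 67.5% with equal spiked controls, and genes past 1.5-fold numbered 212 lower and 125 higher as deposited, 161 and 171 after quantile normalization, 142 and 193 after median scaling, 163 and 166 after lowess and 355 and 83 on the spiked controls. No paired analysis was possible because there was 1 array per condition.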

Other observations

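Values are given for transcription factors that are known to act at the cyclic AMP response element or on neuroendocrine genes; these genes were named after their values were seen. Creb1, which binds the element, was under the filter on its 3 probe sets, with 128 in neurons alone and 162 in neurons with myocytes on one, 115 and 90.6 on the next, and values under the floor on the last. The related factor gene Atf1 had 667 and 671. Rest, a repressor of neuronal and granin genes in other cells, was under the floor on both of its probe sets. Fos, an immediate early gene, had 135 without myocytes and 248 with them on its brightest probe set, 1.84-fold higher, and 16.0, under the floor, and 108 on the other. It passed the filter only through the array where it was high. Jun had 520 and 579, 302 and 451, and 214 and 255 on its 3 probe sets. Egr1, another immediate early gene, had 2382 and 2746.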
